A study of Mus musculus with 8 samples.

Results

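A set of 30 genes of cholesterol and fatty acid synthesis were followed across mouse pre-iPSCs, cells held partway through reprogramming to pluripotency. The genes were taken as a list of symbols: 7 of the mevalonate steps, 10 of the squalene and sterol steps, 4 of SREBP regulation and sterol transport, 5 of fatty acid synthesis and 4 of fatty acid desaturation. Each was represented by the probe with its symbol that was brightest on average over the 8 arrays. Of the 19057 symbols on the array, these made up 27, since Hmgcs1, Fdft1 and Acat2 had no probe under the annotation used and were not analysed here. Of these, 2 (Srebf1 and Acaca) were never above an intensity of 16 (the floor to which lower values were raised, 4 on the log2 scale), so 25 were tested.

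Total RNA was measured on Illumina bead arrays at day 0, while the cells still grew in serum with LIF. All groups were female pre-iPSCs of a 129/MF1 background, derived from neural stem cells, with a reporter driven from Oct4 that carries GFP and puromycin resistance. The groups carried a Nanog transgene with empty vector (Nanog), Nanog and Sin3a transgenes together (Nanog+Sin3a), a Sin3a transgene with empty vector (Sin3a), or empty vectors (EV), with 2 arrays each. The transgenes were integrated with PiggyBac vectors under a constitutive CAG promoter as stable lines selected with hygromycin, blasticidin or both, so each measured level is an average over a selected population. Nanog is a homeobox factor that sustains pluripotency, and Sin3a is the scaffold of a histone deacetylase co-repressor complex.

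Cholesterol is built from acetyl-CoA through mevalonate, isoprenoid units, squalene and lanosterol, and fatty acids from the same acetyl-CoA through malonyl-CoA. When sterol in the endoplasmic reticulum is low, SCAP escorts the SREBP proteins to the Golgi, where they are cleaved to active transcription factors. SREBP2 acts mainly on sterol genes and SREBP1c mainly on fatty acid genes, while INSIG proteins hold the complex back when sterol is plentiful.

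The transgenes matched their labels on every array. The Nanog probe read 365 and 486 on the Nanog arrays and 290 and 285 on the Nanog+Sin3a arrays, and was below 0 on the Sin3a and EV arrays. The Sin3a probe read 1485 and 1483 on the Nanog+Sin3a arrays and 1182 and 1142 on the Sin3a arrays, against 344.4 and 472.5 on the Nanog arrays and 329 and 262 on the EV arrays. The second Sin3a array stood apart at low and middle intensities. Of the 17 tested genes of the list that were not bright (a bright gene having a mean log2 value above 9), 12 differed by more than 1 on the log2 scale between the Sin3a arrays, 10 being lower and 2 higher on the second, and 5 were below the floor there. The 8 bright genes (Acly, Ebp, Fads1, Fdps, Hsd17b7, Msmo1, Scd1 and Sqle) differed by at most 0.33 between the same arrays. The median log2 difference between replicate arrays over the 25 genes was 0.156 for Nanog, 0.164 for Nanog+Sin3a, 0.511 for Sin3a and 0.143 for EV. Comparisons of Sin3a alone with another group, and the interaction of the transgenes, were therefore tested on bright features over 8 arrays. The others were tested over 7 arrays without the second Sin3a array. Among these, the effect of Nanog pooled over Sin3a then takes the Sin3a group from its first array alone. It was also tested on bright features over 8 arrays.

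**Figure D1:**
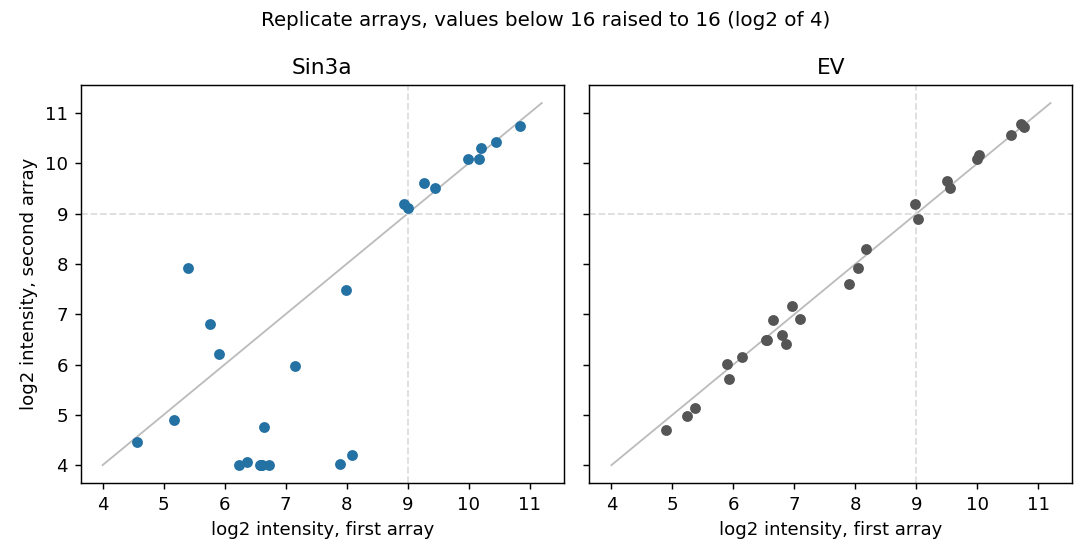
Log2 intensity on the second array (vertical) against the first (horizontal) of the Sin3a group (left) and the EV group (right), 1 point per gene for the 25 tested genes, with values below 16 raised to 16 and dashed lines at 9. Points of the EV group lie along the line of equality, whereas 12 of the 17 genes that were not bright lie more than 1 from it in the Sin3a group.

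Few genes of the list passed the test with Nanog, with or without Sin3a. With Nanog alone against EV, 0 of 25 genes passed an adjusted p of 0.05 (limma with Benjamini-Hochberg adjustment over 12886 features), against 2.69% of all features. At an unadjusted p below 0.05 there were 6 of 25 genes (24%), against 19.5% of all features. The median log2 difference of the list was 0.11, with 17 genes positive and 8 negative, and that of all features was 0.

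With Nanog+Sin3a against EV, 1 of 25 genes passed (4%), against 7.45% of all features, and the list's median was -0.03 beside 0.01 for all features. That gene was Idi1, which fell. Both comparisons use the same EV arrays. With Nanog+Sin3a against Nanog, 0 of 25 passed, against 0.0155% of all features. At an unadjusted p below 0.05 there were 2 of 25 (8%), Fasn and Fads1, against 11% of all features.

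Pooling over Sin3a, the effect of Nanog was the mean of the Nanog and Nanog+Sin3a groups minus the mean of the Sin3a and EV groups. It passed for 2 of 25 genes (8%), against 8.02% of all features, so the list's share was close to that of the whole array. Idi1 fell and Fdps rose. The list's median was 0.00 beside 0.01 for all features, and 23 of the 25 genes lay within 0.5 of 0. At an unadjusted p below 0.05 there were 9 of 25 (36%), against 26.1% of all features.

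**Figure D2:**
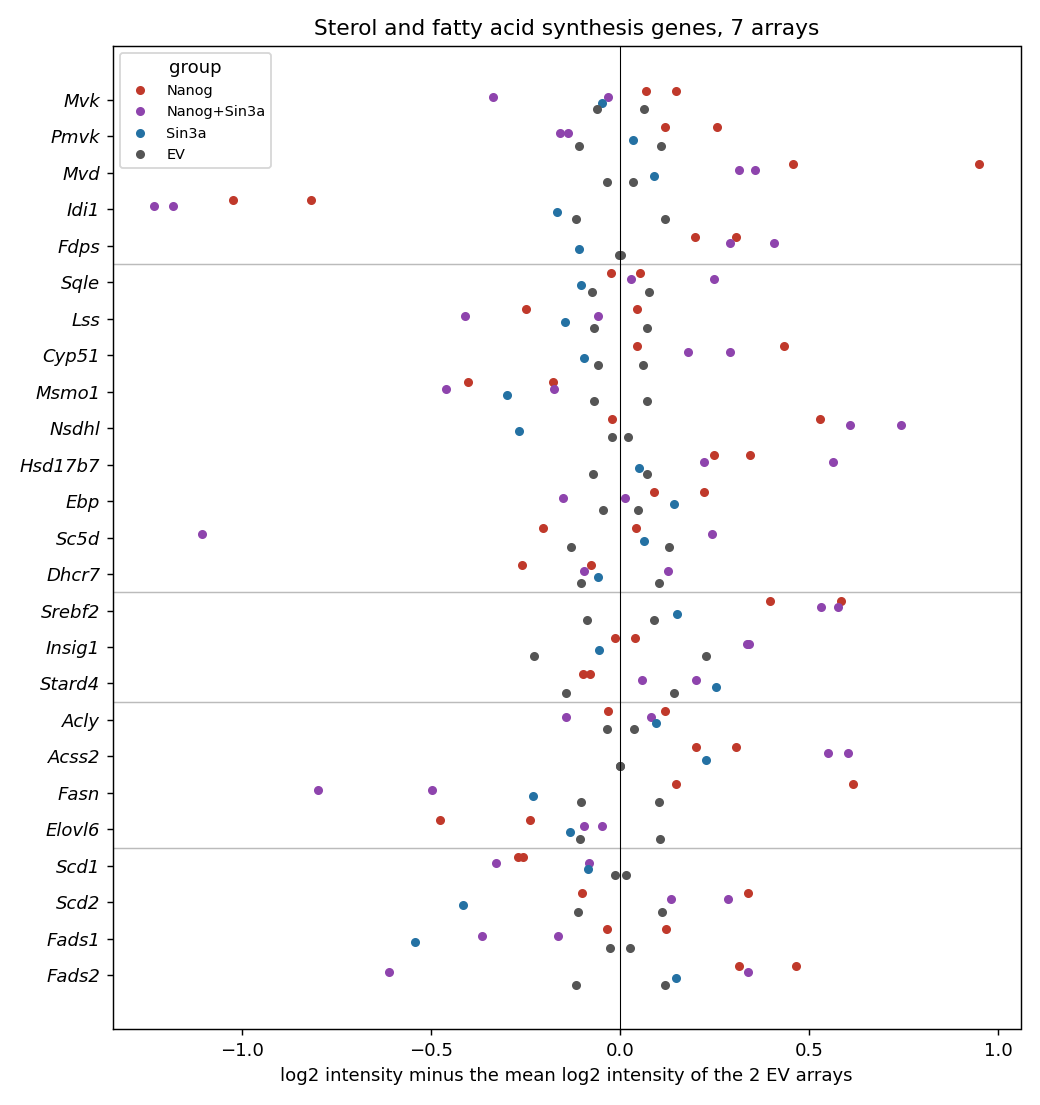
Log2 intensity of each of the 25 tested genes on 7 arrays, minus the mean log2 intensity of its 2 EV arrays (horizontal), 1 row per gene in the order of the pathway steps and 1 point per array, with lines between the 5 role groups. Idi1 lies to the left on all 4 arrays with Nanog, and Fdps, Hsd17b7, Mvd and Srebf2 lie to the right of the Sin3a and EV points on all 4.

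Among the mevalonate steps, 5 of 7 genes were tested. Idi1 encodes isopentenyl-diphosphate isomerase, which turns isopentenyl diphosphate into the dimethylallyl diphosphate that starts each isoprenoid chain. Its RefSeq promoter window, chr13:8885356-8885655 on the plus strand of GRCm38.p6 (250 bases before to 50 after the start), is shown because Idi1 was the gene that fell. The capitals mark a CCAAT box (here ATTGG, the reverse complement of CCAAT, in 2 places) and a GC box (CCGCCC, the reverse complement of GGGCGG).
Idi1: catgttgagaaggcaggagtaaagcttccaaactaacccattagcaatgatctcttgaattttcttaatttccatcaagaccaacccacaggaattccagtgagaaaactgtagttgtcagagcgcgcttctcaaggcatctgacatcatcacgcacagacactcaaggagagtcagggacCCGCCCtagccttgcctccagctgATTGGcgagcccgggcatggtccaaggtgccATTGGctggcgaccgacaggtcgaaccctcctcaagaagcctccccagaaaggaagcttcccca

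Letters matching a palindromic E-box (CACGTG) or the core of a sterol regulatory element (TCACNCCAC) were not in this window. Both strands were searched, and no motif was masked where another overlapped it. Over all 32851 promoter windows of that table, 37.41% held CCAAT, 35.66% GGGCGG, 7.15% CACGTG and 1.24% TCACNCCAC. Of the 30 genes listed, 23 had a window, 28 windows in all. Of these windows, 71.43% held CCAAT, 75.0% GGGCGG, 14.29% CACGTG (in Hsd17b7, Insig1, Dhcr7 and Sc5d) and 3.57% TCACNCCAC (in Hmgcs1, which was not analysed here). No window of Fdps was in the table. These matches describe letters, not binding.

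Idi1 intensity was 61.7 and 53.5 on the Nanog arrays, 46.3 and 47.9 on the Nanog+Sin3a arrays, 96.9 and 3.9 on the Sin3a arrays, and 100.3 and 118.0 on the EV arrays. All 4 arrays with Nanog were below the first Sin3a array and both EV arrays, while the second Sin3a array was below all others. Nanog+Sin3a fell by 1.21 on the log2 scale relative to EV (SE 0.17, adjusted p = 0.0156), a level 2.31-fold lower. Nanog alone differed from EV by -0.92 (SE 0.17, adjusted p = 0.0506), just outside the threshold, and from Nanog+Sin3a by an amount that did not pass (Nanog+Sin3a minus Nanog -0.29, SE 0.17, adjusted p = 0.620). The pooled effect of Nanog was -0.98 (SE 0.14, adjusted p = 0.0114), a level 1.97-fold lower.

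Those calls on Idi1 rest on few arrays and on 1 probe. The Nanog+Sin3a call was lost without the first Nanog+Sin3a array (adjusted p = 0.0769), the second (0.0845), the first EV array (0.136) or the second (0.206), with log2 differences of -1.33 to -1.09. With the second Sin3a array included, the pooled effect was -0.33 and its adjusted p 0.770. It was also lost, at adjusted p of 0.0507 to 0.110, without the second Nanog array, either Nanog+Sin3a array or either EV array.

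Fdps, farnesyl diphosphate synthase, joins isoprenoid units into the precursor shared by squalene and by protein prenylation. Intensity was 1735 and 1869 on the Nanog arrays, 2005 and 1851 on the Nanog+Sin3a arrays, 1401 and 1381 on the Sin3a arrays, and 1509 and 1515 on the EV arrays. The 4 arrays with Nanog were all above the 4 without. On bright features over 8 arrays, the pooled effect of Nanog was 0.36 (SE 0.07, adjusted p = 0.00174), a 1.28-fold rise, and Fdps passed with each of the 8 arrays left out in turn (adjusted p = 0.000239 to 0.0165). Over 7 arrays the difference was also 0.36 (SE 0.07, adjusted p = 0.0294), and there it was lost without any 1 of 6 arrays, the Nanog, Nanog+Sin3a and EV arrays (adjusted p = 0.0562 to 0.150). Nanog+Sin3a against EV gave 0.35 on bright features (SE 0.11, adjusted p = 0.0291), where Fdps was the 1 gene of 8 that passed, against 17% of bright features, and 0.35 over 7 arrays (SE 0.08, adjusted p = 0.0600), where it did not pass. A second Fdps probe, with intensity of 19.3 to 33.9 on those 7 arrays, gave 0.35 (SE 0.22, adjusted p = 0.372).

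The other measured mevalonate genes did not pass in any of these comparisons. Mvd, mevalonate diphosphate decarboxylase, read 126.0 and 177.2 on the Nanog arrays, 117.4 and 114.0 on the Nanog+Sin3a arrays, 97.7 and -1.3 on the Sin3a arrays and 94.0 and 89.6 on the EV arrays. Over the 7 arrays, those with Nanog were all higher, and the pooled effect was 0.47 (SE 0.15, adjusted p = 0.107). Mvk and Pmvk, the kinases that phosphorylate mevalonate in succession, ran from 49.1 to 68.7 and from 92.6 to 123.4 over the 7 arrays, with pooled effects of -0.01 and 0.00. For Nanog alone against EV the Mvd difference was 0.70, the highest of the 25 genes, and it did not pass. Within the same short stretch of the pathway, 1 gene was called as falling (Idi1) and 1 as rising (Fdps). Mvk, Pmvk and Mvd were not called, though the pooled estimate for Mvd was larger than that for Fdps.

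**Figure D3:**
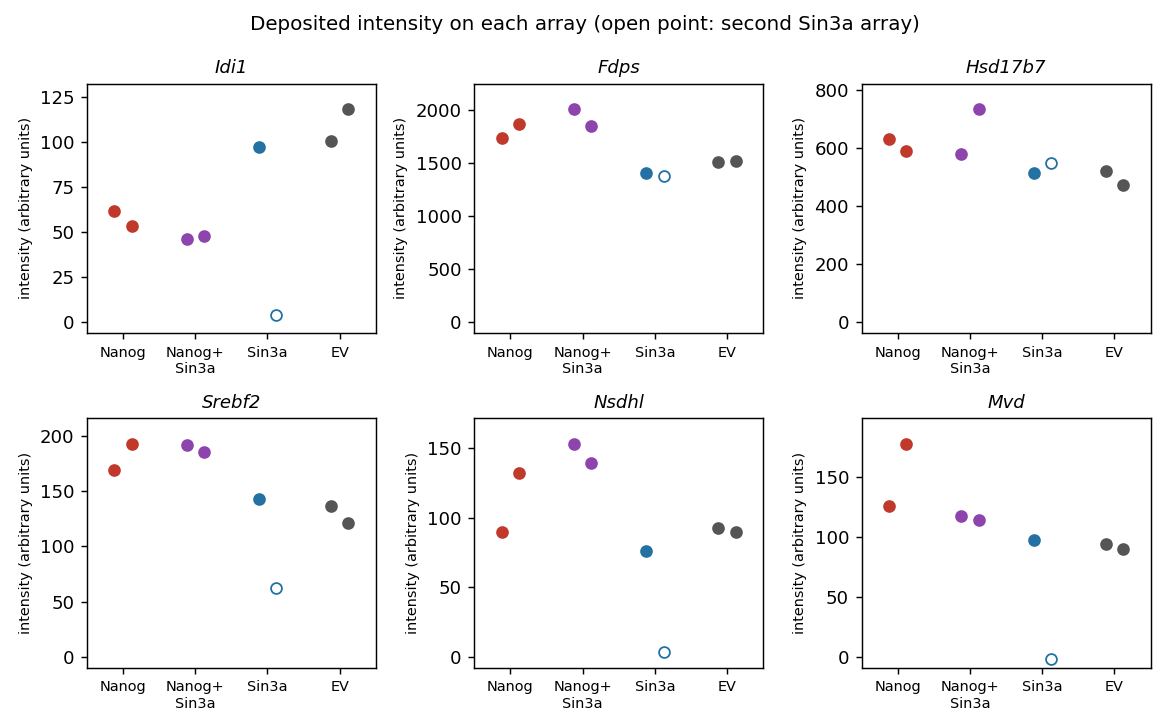
Deposited intensity (vertical, arbitrary units on a linear scale) of Idi1, Fdps, Hsd17b7, Srebf2, Nsdhl and Mvd on each of the 8 arrays, 1 point per array, with groups from left to right Nanog, Nanog+Sin3a, Sin3a and EV and the second Sin3a array as an open point. The open point lies far below its replicate for Idi1, Srebf2, Nsdhl and Mvd and beside it for the bright Fdps and Hsd17b7.

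Of the 10 squalene and sterol genes, 9 were tested and 0 passed in the 7-array comparisons, where 3 of 9 had an unadjusted p below 0.05 for the pooled effect (Nsdhl, Hsd17b7 and Cyp51), or 33.3% beside the 26.1% of all features. Hsd17b7, the ketosteroid reductase of the demethylation steps, read 631.6 and 591.5 on the Nanog arrays, 580.8 and 735.1 on the Nanog+Sin3a arrays, 515.5 and 550.7 on the Sin3a arrays, and 523.1 and 473.8 on the EV arrays. Each array with Nanog was above each array without. Its pooled effect was 0.32 over 7 arrays (SE 0.10, adjusted p = 0.119). On bright features over 8 arrays it was 0.30 (SE 0.10, adjusted p = 0.0401), which passed as 1 of 2 genes among 8 (Fdps being the other), against 26.5% of all bright features.

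Hsd17b7 lost that call without the first Nanog array (adjusted p = 0.0708), the second Nanog+Sin3a array (0.200), the first or the second Sin3a array (0.0810 and 0.0507), or the first or the second EV array (0.0653 and 0.166). A dimmer Hsd17b7 probe, near the floor at 11.1 to 35.0 over the 7 arrays, gave -0.18 (SE 0.23, adjusted p = 0.663). The probes thus differed in sign, but the dimmer one lay within its SE of 0.

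Nsdhl, the sterol dehydrogenase that acts just before Hsd17b7, read 89.9 and 131.7 on the Nanog arrays, 152.8 and 139.1 on the Nanog+Sin3a arrays, 75.8 and 3.6 on the Sin3a arrays, and 92.7 and 90.0 on the EV arrays. The first Nanog array lay just below both EV arrays. The pooled effect of 0.60 was the highest of the 25 but did not pass (SE 0.16, adjusted p = 0.0742), and 3 further Nsdhl probes gave 0.33, 0.21 and -0.15. Without the first Nanog array it was 0.74 (adjusted p = 0.0485).

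Sqle, squalene epoxidase, an oxygen-requiring and often rate-limiting step, ran from 1019 to 1300 over the 7 arrays with a pooled effect of 0.13 (SE 0.08, adjusted p = 0.391). A dimmer Sqle probe gave 0.33 (SE 0.11, adjusted p = 0.121). Cyp51, lanosterol demethylase, was 261.6 and 342.6 on the Nanog arrays, 287.5 and 310.2 on the Nanog+Sin3a arrays, 237.4 on the first Sin3a array and 264.4 and 243.7 on the EV arrays. The first Nanog array of Cyp51 lay between the EV arrays, and the pooled effect was 0.28 (SE 0.12, adjusted p = 0.192).

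None of the remaining sterol genes passed over 7 arrays. Lss, lanosterol synthase, had a pooled effect of -0.10 (SE 0.13), and Ebp, the sterol isomerase, of -0.03 (SE 0.08). Msmo1, the methyl oxidase of the demethylation steps, was 673.2 and 575.9 on the Nanog arrays, 674.7 and 553.1 on the Nanog+Sin3a arrays, 618.7 and 776.3 on the Sin3a arrays and 725.2 and 799.3 on the EV arrays. The first Sin3a array of Msmo1 lay among the arrays with Nanog, and the pooled effect on bright features over 8 arrays was -0.24 (SE 0.10, adjusted p = 0.0998), but it passed without the first Nanog array (-0.29, adjusted p = 0.0341) or the first Sin3a array (-0.32, adjusted p = 0.0437). Dhcr7, a reductase of the final steps, ran from 47.2 to 61.7 over 7 arrays. Sc5d, a sterol desaturase, ran from 15.5 to 40.8, where 1 Nanog+Sin3a array was under the floor, and had the widest error among the 25 (pooled effect -0.29, SE 0.34).

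Among the regulators, Srebf2, which encodes SREBP2, read 168.8 and 192.4 on the Nanog arrays, 191.3 and 185.5 on the Nanog+Sin3a arrays, 142.3 and 62.6 on the Sin3a arrays, and 136.5 and 120.7 on the EV arrays. All arrays with Nanog were above all arrays without. The log2 difference from EV was 0.49 with Nanog (SE 0.13, adjusted p = 0.119) and 0.55 with Nanog+Sin3a (SE 0.13, adjusted p = 0.0579), and the pooled effect was 0.45 (SE 0.10, adjusted p = 0.0526). None of the 3 passed, and a second probe of similar brightness gave a pooled effect of -0.05 (SE 0.11, adjusted p = 0.809).

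Srebf1, which encodes SREBP1, was at or below 9.2 on all 8 arrays. The level of Insig1, the sterol-sensitive anchor of SCAP and itself an SREBP target, was 101.9 and 98.2 on the Nanog arrays, 125.0 and 125.5 on the Nanog+Sin3a arrays, 95.3 and 0.4 on the Sin3a arrays, and 116.0 and 84.7 on the EV arrays. The Nanog+Sin3a arrays were highest, but the EV arrays differed by 0.45 from each other, and the difference from EV was 0.34 (SE 0.18, adjusted p = 0.302). Both dimmer Insig1 probes above the floor gave other values for it, -0.01 (SE 0.19) and -0.35 (SE 0.20). Stard4, a cytosolic sterol carrier, ran from 194.3 to 255.6 over 7 arrays, with a pooled effect of -0.11 (SE 0.11).

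Fatty acid synthesis had 4 of 5 genes tested, and 0 passed. Acly, which cleaves citrate to cytosolic acetyl-CoA, ran from 1562 to 1873 over the 7 arrays, with a pooled effect of -0.04 (SE 0.08). Acss2, which makes acetyl-CoA from acetate, read 81.4 and 87.7 on the Nanog arrays, 103.8 and 107.7 on the Nanog+Sin3a arrays, 83.0 and 16.8 on the Sin3a arrays and 70.9 and 70.9 on the EV arrays. The Nanog+Sin3a arrays were above all others, with a log2 difference from EV of 0.58 (SE 0.14, adjusted p = 0.0634).

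Fasn, fatty acid synthase, stayed near the floor at 42.6 and 30.8 on the Nanog arrays, 13.1 and 19.7 on the Nanog+Sin3a arrays, 23.7 and 21.9 on the Sin3a arrays, and 29.9 and 25.9 on the EV arrays. Nanog+Sin3a lay below the other groups, with 1 array under the floor. The difference of Nanog+Sin3a minus Nanog was -1.03 (SE 0.23, adjusted p = 0.252). Elovl6, the elongase of saturated chains, was 458.3 and 388.8 on the Nanog arrays, 506.0 and 522.4 on the Nanog+Sin3a arrays, 492.7 and 582.0 on the Sin3a arrays and 502.5 and 581.7 on the EV arrays. Only the Nanog arrays of Elovl6 lay apart, below the rest (-0.36 from EV, SE 0.12, adjusted p = 0.181). A second Elovl6 probe, near the floor at -9.4 to 38.0 over 7 arrays, was lower than EV in both groups with Nanog. It gave -0.85 for Nanog and -0.90 for Nanog+Sin3a. Acaca, acetyl-CoA carboxylase, was below 0 on all 8 arrays.

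The 4 desaturase genes were all tested and 0 passed over 7 arrays. Scd1 and Scd2 put the first double bond into saturated chains. The Scd1 level was 614.2 and 619.0 on the Nanog arrays, 699.0 and 589.7 on the Nanog+Sin3a arrays, 698.0 and 727.7 on the Sin3a arrays, and 747.7 and 733.1 on the EV arrays. Its pooled effect was -0.19 (SE 0.08, adjusted p = 0.201), with the first Nanog+Sin3a array just above the first Sin3a array. Scd2 ran from 100.3 to 168.9 over the 7 arrays, with a pooled effect of 0.37 (SE 0.15, adjusted p = 0.175).

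Fads1 and Fads2 are the front-end desaturases of polyunsaturated chains. Intensity of Fads1 was 1863 and 1672 on the Nanog arrays, 1530 and 1330 on the Nanog+Sin3a arrays, 1176 and 1268 on the Sin3a arrays, and 1745 and 1683 on the EV arrays. Both groups with the Sin3a transgene lay below both groups without it, and the share of all features split this way was not computed. Over 7 arrays Fads1 in Nanog+Sin3a differed by -0.31 from Nanog and by -0.26 from EV, and neither difference passed. The brightest Fads2 probe owed its rank to 1 reading of 241.0 on the second Sin3a array, against 24.9 to 52.5 on the others. It gave a pooled effect of 0.05 (SE 0.26), and the probe that was brightest over 7 arrays gave 0.24 (SE 0.20).

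**Figure D4:**
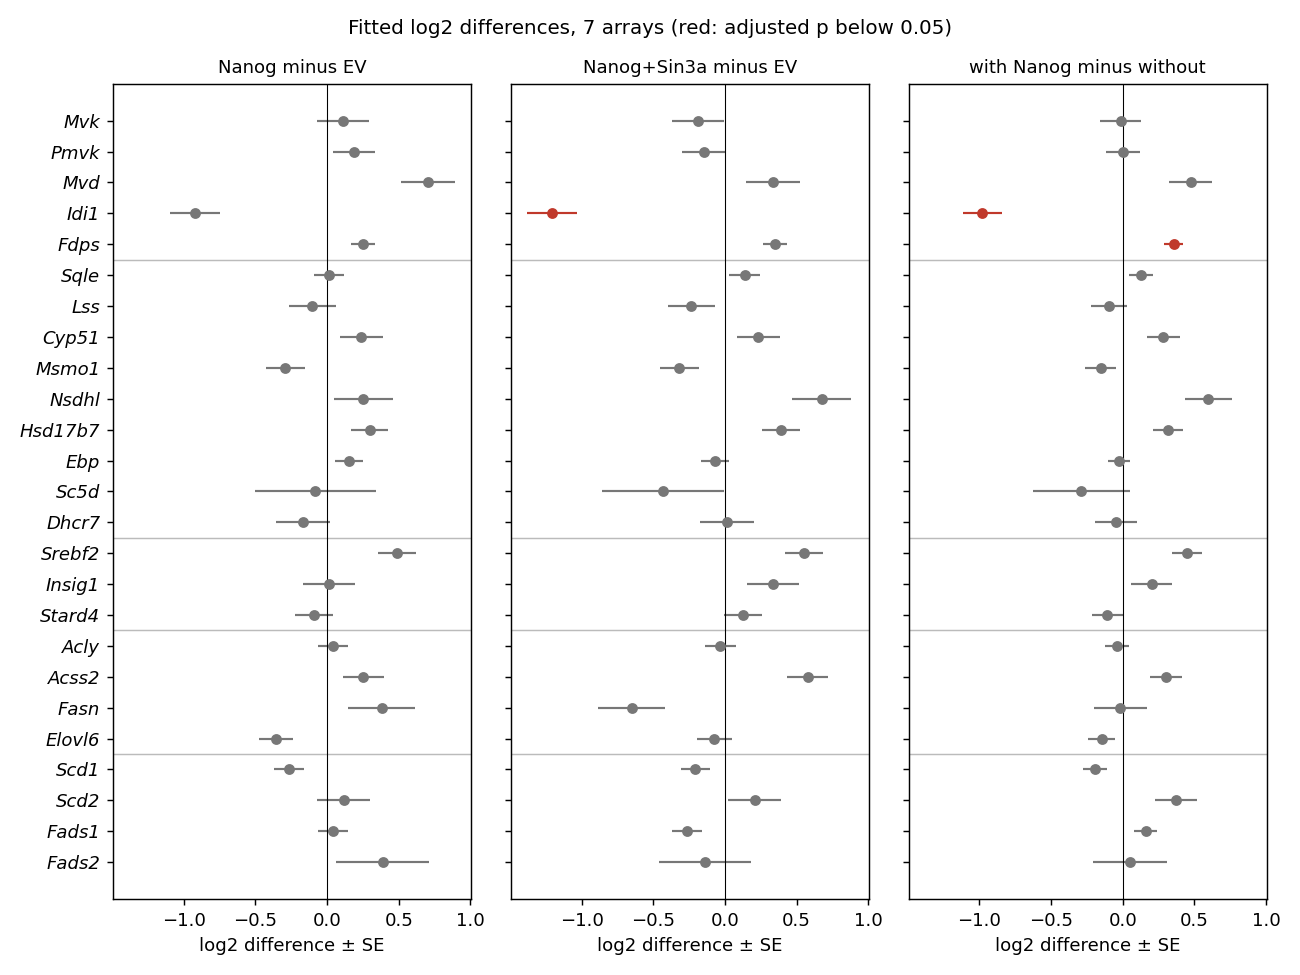
Fitted log2 differences with standard errors (horizontal) of the 25 tested genes over 7 arrays, for Nanog minus EV, Nanog+Sin3a minus EV, and the arrays with Nanog minus those without, with red points past an adjusted p of 0.05. Idi1 is red for Nanog+Sin3a minus EV (-1.21) and for with Nanog minus without (-0.98), and Fdps is red for with Nanog minus without (0.36), where 23 of 25 genes lie within 0.5 of 0.

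For Sin3a the tests were limited to the 8 bright genes over 8 arrays. With Sin3a against EV, 0 of 8 passed, against 0.174% of 2300 bright features. At an unadjusted p below 0.05 there was 1 of 8 (12.5%), against 7.83% of bright features. That gene was Fads1, with a log2 difference of -0.49 (SE 0.11, adjusted p = 0.0981), a level 1.40-fold lower. Without the first or the second Nanog array, which enter this comparison only through the shared estimate of spread, its adjusted p was 0.00938 and 0.0100.

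With Nanog+Sin3a against Sin3a, 1 of 8 genes passed (12.5%), against 11.6% of bright features. Fdps rose by 0.47 (SE 0.11, adjusted p = 0.00622), a level 1.38-fold higher, and the call was lost without the first Nanog+Sin3a array (adjusted p = 0.0740) or the second Sin3a array (0.0883). For the interaction, the difference that Sin3a made on top of Nanog minus the one it made on empty vectors, 0 of 8 passed, against 0.0435% of bright features. At an unadjusted p below 0.05 there were 0 of 8, against 6.52% of bright features. The interaction was 0.22 for Fdps (SE 0.15), 0.18 for Fads1 (SE 0.16), 0.00 for Hsd17b7 (SE 0.21) and -0.32 for Ebp (SE 0.16), each with limma over 8 arrays.

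Array by array, most of the genes overlapped between arrays with and without Nanog, as did most of all features. Over 7 arrays, 4 of 25 genes (Fdps, Hsd17b7, Mvd and Srebf2) had every array with Nanog above every array without, against 11.9% of all features. For 1 gene, Idi1, every array with Nanog was below, against 12.5% of all features. The other 20 overlapped.

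Beyond the 30 genes, 54 further symbols of neighbouring pathways were looked up, and 49 had a probe. Of these, 38 were tested over 7 arrays, and 1 passed for the pooled effect (2.63%), against 8.02% of all features, with 0 in the 3 comparisons of pairs of groups. At an unadjusted p below 0.05 there were 4 of 38 for Nanog against EV (10.5%), against 19.5% of all features. For Nanog+Sin3a against Nanog there were 3 (7.89%), against 11% of all features. For Nanog+Sin3a against EV there were 9 (23.7%), where the share of all features was not computed. The gene that passed for the pooled effect was Dgat2, an enzyme of the last step of triglyceride synthesis. It read 88.6 and 71.7 on the Nanog arrays, 68.7 and 74.4 on the Nanog+Sin3a arrays, 36.8 and 21.6 on the Sin3a arrays and 45.9 and 54.2 on the EV arrays. Every array with Nanog was above every array without, and the pooled effect was 0.82 (SE 0.15, adjusted p = 0.0282). None of 3 tested isoprenoid and sterol enzymes, 7 SREBP regulators, 7 genes of sterol uptake, efflux and storage, and 6 of fatty acid oxidation passed in those comparisons, nor did the other 14 of 15 in fatty acid and glycerolipid synthesis. The genes of sterol uptake, efflux and storage, named here because their median was furthest from 0, had a median pooled effect of -0.23, beside 0.01 for all features. Of them 6 of 7 were negative, and the share of all features that were negative was not computed. At an unadjusted p below 0.05 there were 2 of 7 (28.6%), against 26.1% of all features. Scarb1 and Vldlr among them were near the floor. The medians of the other further lists ran from -0.08 to 0.11.

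Markers of other cells also differed between groups. Of the pluripotency markers, 5 of 6 were above the floor on at least 2 arrays, and their summed intensity was 1232 to 1283 on the Nanog arrays, 1026 to 1231 on the Nanog+Sin3a arrays, 1284 to 1471 on the Sin3a arrays and 1350.5 to 1474 on the EV arrays, most of it from Pou5f1. Sall4 among them read 171.1 and 134.8 on the Nanog arrays, 88.5 and 98.5 on the Nanog+Sin3a arrays, 292.9 and 416.8 on the Sin3a arrays, and 258.2 and 226.1 on the EV arrays, lower on each array with Nanog. The other pluripotency markers overlapped between arrays with and without Nanog. Pou5f1 ran from 903.5 to 1082.6 with Nanog and from 867.1 to 1167.3 without. Dppa5a ran from 26.3 to 36.8 with Nanog and from -12.6 to 30.5 without. Of 5 neural stem cell markers, 2 were above the floor on at least 2 arrays (Nes and Sox2), with sums of 84.8 to 85.3, 58.1 to 77.7, 32.3 to 146 and 108.4 to 116.5 in the same order of groups. Pax6, Fabp7 and Olig2 were at most 2.7 on the 7 arrays without the second Sin3a array. On that array Pax6 read 15.0 and Olig2 16.7, beside 0.6 for Nes, and the sum was 32.3. Of 5 fibroblast markers, 2 were above it (Dcn and Pdgfra), with sums of 52.4 to 65.5, 106 to 121, 0 to 21.4 and 24.0 to 28.8, and Col3a1 was below 0 on all arrays. Of 4 adipocyte markers, 0 were above it on 2 arrays. On each array with Nanog the pluripotency sum was lower, and the fibroblast sum higher, than on each array without. Taken singly, only Sall4 among the pluripotency markers and only Dcn among the fibroblast markers separated the arrays this way. Dcn ran from 16.6 to 92.6 with Nanog and from -3.1 to 14.3 without. Pdgfra overlapped, from -7.8 to 31.5 with Nanog and from -13.7 to 24.0 without. The nearest pluripotency sums were 1283 and 1284. The neural sum was lower with Nanog only when the second Sin3a array (32.3) was left out. All sums include readings below the floor. The part of these markers in the Idi1 and Fdps results was not tested. In these bulk samples fewer cells of a type and less RNA per cell cannot be told apart.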

How the data were processed

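The deposited values are probe intensity on a linear scale, made by the authors with GenomeStudio, per the submitters' processing notes, with no version or settings given in the sources used here. The values run from -24 to 14965, with 47.28% to 47.65% below 0, which shows background subtraction. Sorted values of 7 arrays differed from their common profile by at most 0.621% above 16, and those of the second Sin3a array by 4.05%, so they were taken as already quantile-normalised and not normalised again. Of 45281 probes, 34885 had 1 symbol in the platform annotation, 18 several and 10378 none. The number of arrays limits the precision. Slide and scan are not given in the sources used here and were not tested as batches.

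Values were raised to a floor of 16 and converted to log2. Each symbol was represented by its brightest probe over 8 arrays, unnamed probes were kept, and features above the floor on at least 2 arrays were tested with limma 3.58.1 (lmFit, eBayes with trend, 1 coefficient per group) in R 4.3.3, two-sided. P-values were adjusted by Benjamini-Hochberg over all features of a fit. The 7-array fit held 12886 features (3 residual degrees of freedom), with the lone Sin3a array assumed to vary like the other groups. The bright fit held 2300 features over 8 arrays (4 degrees of freedom). The pooled effect of Nanog on bright features was added after the data had been seen. The scripts were tested on simulated data.

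All 25 tested genes of the list are named, as are called genes of the further lists. The genes, the lists, and the treatment of the second Sin3a array were chosen with earlier results of these data known. Replicates are numbered in the labels without saying whether they are separate cultures, so the p-values cover only array-to-array spread, which may be technical. Same-numbered arrays of different groups did not deviate together (correlations -0.17 to 0.06), so they were not treated as pairs. The promoter window is from RefSeq (GRCm38.p6), for which 23 of 30 symbols matched. Alternatives tried were other floors, repeated quantile normalisation, median centring, other filters, no trend, a replicate block, means over probes, 8 arrays, and leaving out each array.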

Additional observations from a re-analysis of the deposited data

How the results depend on the processing

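In the alternatives that tested it, Idi1 was negative for Nanog+Sin3a against EV and for the pooled effect of Nanog. Fdps, where tested, was positive for the pooled effect and for Nanog+Sin3a against Sin3a. Including the second Sin3a array turned the sign of the pooled effect for 4 of 25 genes (none of them called). These were Lss (0.87 with 8 arrays, -0.10 with 7), Fads2 (-0.58 and 0.05), Stard4 (0.02 and -0.11) and Fasn (0.01 and -0.02). It also turned Idi1 for Nanog+Sin3a minus Sin3a (0.26 and -1.04) and for the interaction (1.18 and -0.12). Dhcr7 turned in the same contrasts (-0.45 and 0.08, then -0.28 and 0.24). How many genes turned in those contrasts was not counted. For Nanog against EV, the count of genes passing was 1 (Idi1) rather than 0 with a floor of 32, repeated quantile normalisation, median centring, no intensity trend or means over probes, and 0 to 1 with an array left out. For Nanog+Sin3a against EV it was 4 with a floor of 32 (Idi1, Fdps, Srebf2 and Acss2), 2 without the trend or with means over probes (Idi1 and Acss2), 0 with no filter or with 8 arrays and all features, 1 with 8 arrays and bright features (Fdps), and 0 to 1 with an array left out. For the pooled effect of Nanog over 7 arrays it was 4 with a floor of 32 (Idi1, Fdps, Nsdhl and Srebf2), 1 with no filter, no trend, means over probes, the replicate block or 8 arrays and all features, 2 with 8 arrays and bright features, and 0 to 2 with an array left out. For Sin3a against EV it was 0 to 1 (Fads1) with an array left out. For Nanog+Sin3a against Sin3a it was 0 with no filter (8 arrays and all features, bright or not) or 8 arrays with all tested features. It was 0 to 1 with an array left out. The pooled effect set against the bright fit gave 0 with no filter (again all features) and 1 with 8 arrays and all tested features. It gave 1 to 2 with an array left out. With means over probes both counts were 0, but Fdps and Hsd17b7 were then not among the bright features and were not tested. The causes of the other shifts were not tested. Under the replicate block the Fdps pooled effect over 7 arrays had an adjusted p of 0.0738, and that of Idi1 0.0296. Over 7 arrays a contrast without the first Sin3a array could not be fitted where it needs that group. Genes close to the floor, among them Fasn, Sc5d and Fads2, can show differences only with wide errors; Srebf1 and Acaca were not above the floor on any array.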
